A study of Homo sapiens with 12 samples.

Results

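Olfactory receptor genes were examined in 4 ChIP-seq libraries of H3K27me3, the histone mark laid down by Polycomb repressive complex 2, from T24, a cell line established from a human bladder cancer. The members were all autosomal genes whose symbol had the form of an intact olfactory receptor name, without the final P of a pseudogene, and that were the nearest gene of a deposited peak centred within 10 kb of their transcription start site in any of the 4 libraries. This gave 363 of the 18981 genes that had a peak at that distance. They lay in 831 distinct intervals of the authors' consensus set, which together covered 8.85 Mb. Per the labels, the libraries came from cells given DMSO as vehicle, 5 µM GSK-126 (an inhibitor of EZH2, the methyltransferase subunit of that complex), 5 µM fenretinide (a synthetic retinoid) or both compounds at 5 µM each. The 3 treated groups were labelled 72 h, while no time was given for the vehicle cells. Fixation was with 1% formaldehyde for 10 min in every group. With 1 library per condition there is no replicate check on any difference, and no p-value was computed. The labelled 4 input and 4 RNA libraries were not analysed here, so neither the expression of the receptors nor the identity of the cells by marker genes was examined.

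Olfactory receptors are odorant-binding G protein-coupled receptors and form the largest gene family of the human genome. Most of the genes have a single coding exon and sit in long clusters on many chromosomes; class I receptors resemble those of fish and share a cluster on chromosome 11, and class II receptors make up the remainder. Each olfactory neuron expresses a single receptor gene and packs the others into heterochromatin, and outside the nose most of the family is silent, although a few members such as OR51E2, OR51E1 and OR2AT4 are known from other tissues.

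The members fell into 49 class I and 314 class II genes of 17 families. RefSeq (GRCh38.p14) lists 389 protein-coding autosomal genes of this name pattern, and 357 of them were members; 32 were not, 16 of these on chromosome 11. A further 6 members were not protein-coding in RefSeq. The gene nearest beyond the 10 kb limit was OR2D3, 13100 bases from its closest peak, with 161 fragments in the vehicle library and 417 with GSK-126. Just inside the limit were OR51B5, at 9678 bases with 4 and 15 fragments, and OR51V1, at 8846 bases with 15 and 35. Most members had a closer peak, and 312 of the 363 had a peak centre within 2 kb. Neighbouring receptors often lie under the same broad interval: 165 members shared an interval with another member, and the 363 genes reduced to 258 groups that shared none, so the members are not independent measurements.

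The promoters of 5 members named in the results below are printed here, and no change of the mark was tested against their sequence. OR2T1 and OR2M5 lie in the large chromosome 1 cluster that rose with GSK-126, and OR4C15 in the chromosome 11 cluster with 29 members called higher. OR7G1 lies in the interval named first among the falls, and OR4D5 is 1 of the 3 members called higher with fenretinide. Each sequence runs 5′ to 3′ from 250 bases before to 50 bases after the RefSeq start on GRCh38.p14. Capitals mark matches on either strand to 4 motifs: TATAAA, the TATA box core; TAATTA, the core bound by LHX2-type homeodomains; the palindrome bound by EBF factors (TCCC, any 2 bases, GGGA); and CAGCTG, an E-box. OR2T1 is chr1:248402798-248403097 on the plus strand, OR2M5 is chr1:248144898-248145197 on the plus strand, OR4C15 is chr11:55554219-55554518 on the plus strand, OR7G1 is chr19:9115714-9116013 on the minus strand and OR4D5 is chr11:123939367-123939666 on the plus strand.
OR2T1: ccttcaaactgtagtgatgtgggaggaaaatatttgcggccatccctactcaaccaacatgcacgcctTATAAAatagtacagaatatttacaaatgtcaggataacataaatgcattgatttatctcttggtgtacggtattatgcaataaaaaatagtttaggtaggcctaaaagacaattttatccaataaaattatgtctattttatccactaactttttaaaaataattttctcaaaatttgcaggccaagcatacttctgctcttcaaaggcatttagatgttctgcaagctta
OR2M5: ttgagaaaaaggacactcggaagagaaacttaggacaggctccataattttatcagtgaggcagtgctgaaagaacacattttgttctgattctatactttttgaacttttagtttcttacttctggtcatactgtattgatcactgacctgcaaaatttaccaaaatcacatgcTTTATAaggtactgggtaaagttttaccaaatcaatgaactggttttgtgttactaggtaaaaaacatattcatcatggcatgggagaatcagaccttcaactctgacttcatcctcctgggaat
OR4C15: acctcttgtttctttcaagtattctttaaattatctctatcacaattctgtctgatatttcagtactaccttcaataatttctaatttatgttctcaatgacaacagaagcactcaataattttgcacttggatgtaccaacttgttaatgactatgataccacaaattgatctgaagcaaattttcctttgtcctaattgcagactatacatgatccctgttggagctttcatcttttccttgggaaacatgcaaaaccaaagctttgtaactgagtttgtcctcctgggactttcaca
OR7G1: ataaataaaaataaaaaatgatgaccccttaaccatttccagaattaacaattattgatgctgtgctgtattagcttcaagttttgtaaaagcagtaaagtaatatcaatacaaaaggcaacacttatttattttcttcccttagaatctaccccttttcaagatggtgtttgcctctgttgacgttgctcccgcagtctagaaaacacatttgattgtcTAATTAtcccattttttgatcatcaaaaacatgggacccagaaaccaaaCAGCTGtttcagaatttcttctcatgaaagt
OR4D5: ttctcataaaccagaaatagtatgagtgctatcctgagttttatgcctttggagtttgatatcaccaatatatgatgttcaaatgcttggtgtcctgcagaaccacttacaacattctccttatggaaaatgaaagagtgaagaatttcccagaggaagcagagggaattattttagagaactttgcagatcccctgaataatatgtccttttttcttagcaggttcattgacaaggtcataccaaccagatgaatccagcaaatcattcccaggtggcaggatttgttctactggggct
RefSeq promoters of this length were at hand for 289 members. Their median GC content was 37.7%, against 58.7% over all 35116 RefSeq promoters in the table, and their median number of CpG dinucleotides was 1, against 14. The RefSeq start coincided with an ATG in 120 of the 289 (41.5%), as in OR2M5, OR4C15, OR7G1 and OR4D5, against 2.29% of all promoters. In these models the start site is the start codon, so the window before it need not be the promoter used in olfactory neurons. The CAGCTG marked in OR7G1 lies after this ATG, in the coding sequence. TATAAA was found in 33.9% of the members' windows and 11.5% of all windows, TAATTA in 22.5% and 4.84%, CAGCTG in 9.34% and 17.9%, and the EBF palindrome in 0.692% and 1.21%; these are matches of letters only, and the members' windows hold more A and T. By the GSK-126 result given below, median GC content was 35% in 55 members called higher, 42.7% in 25 called lower and 38.7% in the 201 called neither.

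The intervals held 17133107 fragments in the vehicle library, 16156194 in the GSK-126 library, 18928836 in the fenretinide library and 15812933 in the combination library. A difference was measured as the ratio of a gene's share of these fragments between 2 libraries, with an exact 95% counting interval that covers counting error only, and counted as higher from a ratio of 2 upwards, or lower from 0.5 downwards, when the interval excluded 1 and the 2 libraries held at least 50 fragments. Log2 values carry a pseudocount of 0.5 fragments. A share does not give the amount of the mark per cell. The alternative in which libraries were scaled to the 25% of intervals with the fewest fragments per kb, called background scaling below, lowered every log2 ratio of GSK-126 to vehicle by 0.77, of the combination to vehicle by 0.81 and of fenretinide to vehicle by 0.13. Directions are therefore given below with the value under that scaling where it turns, and the distance between the members and all genes, which no scaling moves, is given beside them.

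In the vehicle library the receptor genes carried H3K27me3 at about the level of genes with a peak in general. The median over the 363 members was 14.2 fragments per kb, against 13.3 for all 18981 genes. Class I genes had 18.8 fragments per kb and class II genes 12.6. These levels are not scaled for the fragment totals, so they are compared within a library. With GSK-126 the median of all genes was 7.96 fragments per kb, while that of the receptors was 13.0, with 19.1 for class I and 12.4 for class II. With fenretinide the receptors had 17.1 fragments per kb and all genes 13.0, and with the combination 13.3 and 8.52. So the receptors stood close to other genes in the vehicle library and above them in each treated library. The members' intervals held 0.951% of interval fragments in the vehicle library, 0.908% after GSK-126, 1.00% after fenretinide and 0.932% after both, while they made up 0.683% of the interval length. Peaks were called near 318 members in the vehicle library, 338 after GSK-126, 323 after fenretinide and 348 after both, and 276 members had a peak in all 4 libraries. The members had 786, 831, 808 and 926 peaks in the same order, with a median length of 1.74, 2.05, 1.95 and 1.78 kb, and 75% to 76.1% of these peaks were annotated as intergenic. The median of the authors' peak score was 20, 18, 20 and 17, against 20, 17, 19 and 15 for all peaks of each library.

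With GSK-126 the share of interval fragments at the receptor family as a whole was near that of vehicle, and within the family some clusters rose and others fell. Summed over the members' intervals, the ratio to vehicle was 0.955 (95% counting interval 0.949 to 0.962), or 0.562 under background scaling. Of 351 members with enough fragments, 66 rose and 33 fell, whereas 11.5% of all 14725 genes tested were called higher and 41.4% lower. The median log2 ratio was -0.09 for the members and -0.79 for all genes, a difference of 0.70. Under background scaling 32 members were called higher and 150 lower, against 7.23% and 68.7% of all genes, and the members' median was -0.86.

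The rises were concentrated in a few places. The chromosome 1 cluster from OR2B11 to OR14I1 (40 members, chr1:247442276-248684077), which holds the OR2T, OR2M and OR2L subfamilies, had 28 of 36 tested members higher and 2 lower. Its intervals went from 2035 fragments with vehicle to 6538 with GSK-126, a ratio of 3.41 (3.24 to 3.58), or 2.003 under background scaling. The chromosome 11 cluster from OR4C46 to OR10V1 (66 members, chr11:54546065-59726165) had 29 of 65 tested members higher and 4 lower, with a ratio of 1.505 (1.48 to 1.53) that turned to 0.885 under background scaling. A smaller group on the other side of the centromere of chromosome 11, OR4C13, OR4C12 and OR4C45 (chr11:49921267-50045031), had all 3 members higher and a ratio of 3.58 (3.26 to 3.93), or 2.11 under background scaling. Outside the 2 large clusters 9 of 250 tested members rose and 27 fell, with a median log2 ratio of -0.29; inside them 57 of 101 rose and 6 fell, with a median of 1.19. The 2 clusters were put together after their values were seen, so this split is a description.

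**Figure D1:**
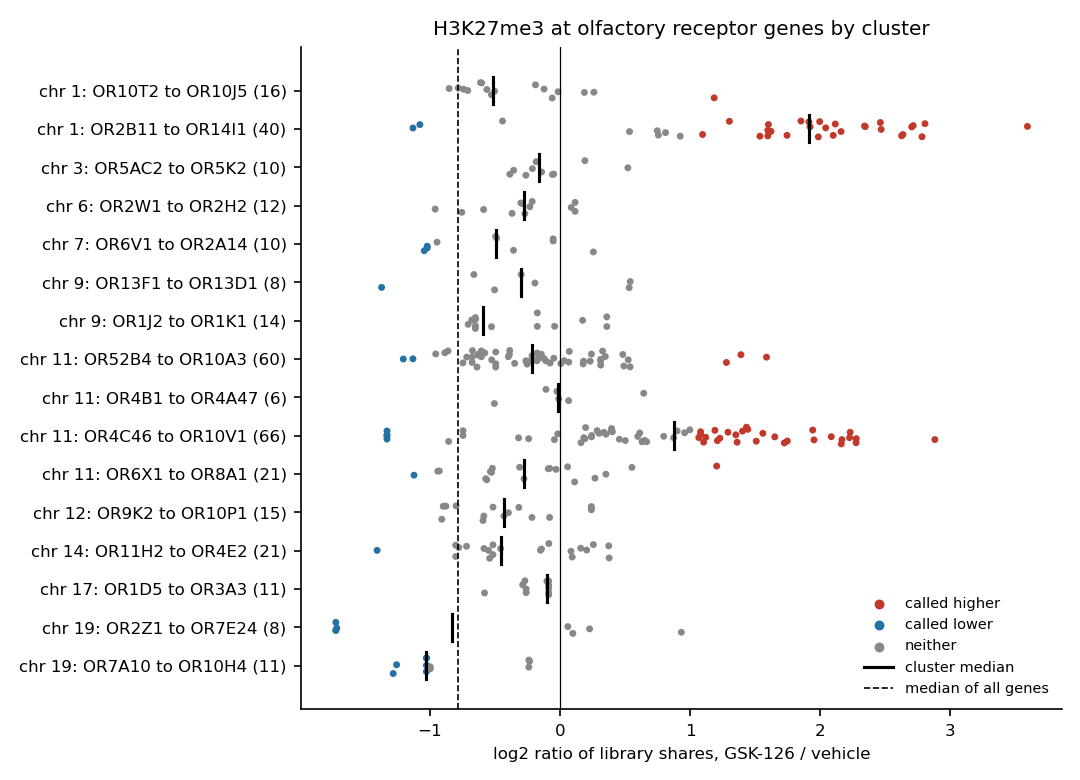
Log2 ratio of library shares, GSK-126 over vehicle, of each tested olfactory receptor gene (points) in the 16 clusters of at least 5 members, named by first and last member with the number of members; black bars are cluster medians and the dashed line is the median of all genes, -0.79. The chromosome 1 cluster from OR2B11 to OR14I1 and the chromosome 11 cluster from OR4C46 to OR10V1 hold 57 of the 66 members called higher; background scaling would move the points, the bars and the dashed line by -0.77, which leaves 20 and 10 members of these clusters called higher.

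Of the 6 members named for the largest rises with GSK-126, 5 were OR2 genes of the chromosome 1 cluster, which are class II receptors, and the other was OR5L1 of the chromosome 11 cluster, given with its neighbours below. OR2T1 had 12 fragments in the vehicle library, 142 after GSK-126, 32 after fenretinide and 96 after both compounds. Its GSK-126 ratio was 12.5 (6.96 to 24.9), on a low vehicle count. OR2M2 had 75, 498, 125 and 390 fragments in the same order of libraries and a ratio of 7.04 (5.51 to 9.10). OR2M5, its neighbour, showed the same order of libraries, with 83, 542, 131 and 420 fragments and a ratio of 6.92 (5.49 to 8.83). OR2L3 had 75, 464, 124 and 366 fragments, a ratio of 6.56 (5.13 to 8.49). OR2T12 had 42, 263, 60 and 199, a ratio of 6.64 (4.78 to 9.43). In each of these 5 genes the GSK-126 library was the highest, followed by the combination, fenretinide and vehicle, and the ratios were 3.86 to 7.38 under background scaling. These genes share no interval with one another, but they are neighbours of 1 domain. The same cluster held the 2 exceptions OR2W5, which fell from 70 to 31 fragments (ratio 0.470, 0.297 to 0.727), and OR2T11, named after its values were seen, which fell from 68 to 29 (ratio 0.452, 0.282 to 0.708).

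Position within the 2 large clusters went with the size of the change. In 500 kb steps along the chromosome 1 cluster the GSK-126 ratio was 2.22, then 5.52, then 2.05. Along the chromosome 11 cluster from OR4C46 it was 3.40 from 54.55 Mb, 3.73 from 55.05 Mb, 2.98 from 55.55 Mb, 2.48 from 56.05 Mb and 1.71 from 56.55 Mb. The steps further from the centromere were lower, at 0.846 from 57.55 Mb, 1.12 from 58.05 Mb, 0.976 from 59.05 Mb and 0.551 from 59.55 Mb. The first 2 of these steps rest on 3 and 7 intervals, and those from 57.55, 59.05 and 59.55 Mb on 2, 4 and 5. Under background scaling the first 4 steps stayed above 1 (2.001, 2.19, 1.75 and 1.46), the fifth was 1.01, and the step from 58.05 Mb turned to 0.657. The 29 members called higher all lay in the first 5 steps, where OR4C15 lies, and the 4 called lower in the later ones. OR4C15 had 200 fragments in the vehicle library, 917 after GSK-126, 319 after fenretinide and 851 after both, a GSK-126 ratio of 4.86 (4.17 to 5.69). OR5L1 had 24, 170, 58 and 120, a ratio of 7.51 (4.88 to 12). At the distal end OR4D10 fell from 1601 to 600 fragments, a ratio of 0.397 (0.361 to 0.437). Intervals in the same spans that belonged to no member had GSK-126 ratios of 2.70 in the chromosome 1 cluster, or 1.59 under background scaling, and 1.66 in the chromosome 11 cluster, which turned to 0.974. Among the other genes of these spans, 2 of 5 tested were higher and 0 lower in the first. In the second 4 of 29 were higher and 14 lower, with a median log2 ratio of -0.90. These calls in the second span were near those of all genes, 11.5% higher and 41.4% lower with a median of -0.79.

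**Figure D2:**
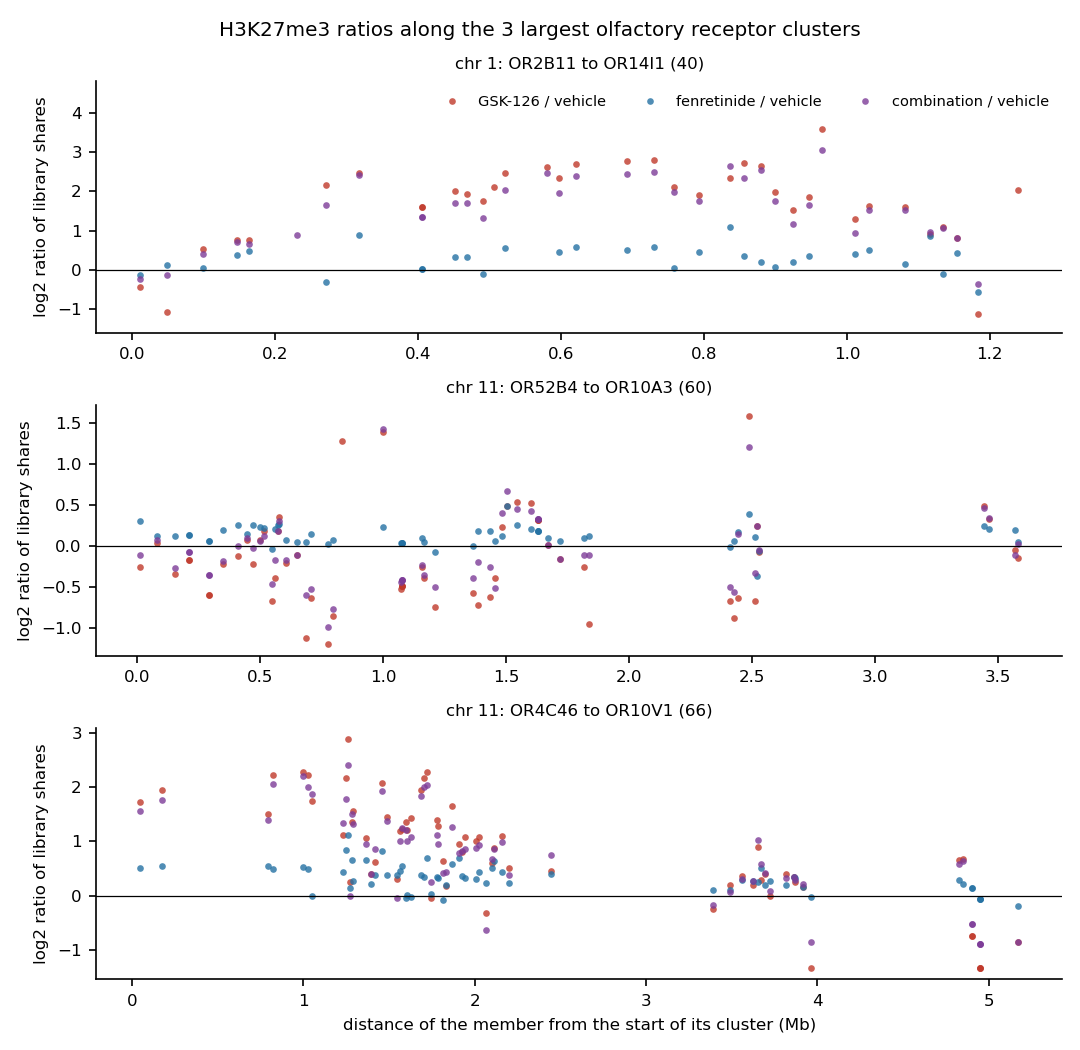
Log2 ratio to vehicle of each tested member against its distance from the start of its cluster, in the 3 largest clusters, for GSK-126 (red), fenretinide (blue) and the combination (purple). GSK-126 and the combination rise to a maximum inside the chromosome 1 cluster and are highest in the first part of the chromosome 11 cluster from OR4C46, where 500 kb steps gave GSK-126 ratios of 3.40 and 3.73 before they fell to 0.846; background scaling moves all red points by -0.77, purple by -0.81 and blue by -0.13.

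By shares of interval fragments, few class I genes were called in either direction with GSK-126. The 47 tested class I members gave 2 higher and 2 lower (4.26% each), against 11.5% higher and 41.4% lower of all genes. Their median log2 ratio was -0.23. The 304 tested class II members gave 64 higher and 31 lower (21.1% and 10.2%) with a median of -0.08. The chromosome 11 cluster that holds the class I genes (OR52B4 to OR10A3, 60 members, chr11:4357601-7949708) had 30926 fragments with vehicle and 26706 with GSK-126, a ratio of 0.916 (0.901 to 0.931). Under background scaling the cluster ratio was 0.538, and of its 58 tested members 0 were higher and 27 lower, with a median log2 ratio of -0.98. By shares 3 of these 58 members were higher and 2 lower, so the number of lower calls in the cluster depended on the scaling. Of all genes 7.23% were higher and 68.7% lower under background scaling, with a median of -1.55. The class I genes alone were not counted under that scaling. The class I genes called higher were OR51V1, from 15 to 35 fragments, and OR51B6, from 49 to 122 (ratio 2.64, 1.88 to 3.76). Both flank the beta-globin genes. OR51B5, in the same stretch, had 4, 15, 8 and 8 fragments and was not tested. In the same cluster the class II gene OR10A5 was also called higher, with 24 and 69 fragments. OR51E2, a receptor that is abundant in prostate and responds to short-chain fatty acids, had 1350 fragments in the vehicle library, 1097 after GSK-126, 1709 after fenretinide and 1098 after both. Its GSK-126 ratio was 0.862 (0.795 to 0.934), and that of its neighbour OR51E1 was 0.657 (0.597 to 0.723), from 1126 and 698 fragments. Neither passed the 2-fold rule.

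By family, the calls followed where the genes lie. For each family, the shares to set beside its calls with GSK-126 are those of all genes, 11.5% higher and 41.4% lower. Family 2, which fills much of the chromosome 1 cluster, had 22 of 58 tested genes higher and 8 lower with GSK-126, and family 5, on chromosomes 3 and 11 among others, had 15 of 47 higher and 1 lower. Family 8 had 6 of 23 higher and 0 lower, and family 4 had 11 of 43 higher and 6 lower. The medians of families 2, 5 and 8 were 0.17, 0.49 and 0.11 on the log2 scale, all of which turn negative under background scaling. Family 7, on chromosome 19, had 7 of 11 genes lower, 0 higher and a median of -1.03, where 41.4% of all genes were lower. Some of these genes share an interval, as OR7G1 and OR7G2 do, so they are not separate measurements. Families 1, 6 and 10 had few calls: 1 higher and 1 lower of 27, 1 and 3 of 29, and 2 and 4 of 32. The rises outside the clusters named so far were OR10J5 on chromosome 1, from 147 to 316 fragments (ratio 2.28, 1.87 to 2.79), OR4D5, described with fenretinide below, and OR11H1, the only member on chromosome 22, from 293 to 554 (ratio 2.01, 1.74 to 2.32).

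The 6 members named for the largest falls with GSK-126 lay on chromosomes 19 and 2. OR7G1, OR7G2 and OR1M1 lay under 1 interval (chr19:9081047-9125908), which held 1581 fragments in the vehicle library, 451 after GSK-126, 1548 after fenretinide and 623 after both. The GSK-126 ratio was 0.303 (0.272 to 0.336), and OR7G3, which has 1 further small interval, had 0.304. The vehicle and fenretinide libraries were the higher pair here, and the 2 libraries with GSK-126 were lower. On chromosome 2 OR6B2 and OR6B3 shared an interval of 2554, 884, 2192 and 1157 fragments, a ratio of 0.367 (0.340 to 0.396). The chromosome 19 cluster from OR7A10 to OR10H4 (11 members) had 6 members lower and none higher of 11 tested, and its intervals a ratio of 0.581 (0.564 to 0.597). Its 500 kb step from 14.79 Mb held 6 members but only 2 intervals, so the members are not separate measurements. Within the cluster OR10H1 had 958, 371, 980 and 465 fragments and a ratio of 0.411 (0.363 to 0.463). OR2AT4, known as a receptor for the sandalwood odorant Sandalore in skin, fell from 791 to 356 fragments, a ratio of 0.477 (0.420 to 0.542). OR6S1 of the chromosome 14 cluster had 1190, 423, 1255 and 491 fragments and a ratio of 0.377 (0.337 to 0.422). Over the 16 clusters of at least 5 members, the GSK-126 counting interval was wholly above 1 in 3 and wholly below 1 in 11; under background scaling 1 cluster ratio stayed above 1, that of OR2B11 to OR14I1.

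Receptors with a known odorant are given whatever their values. OR7D4, the androstenone receptor, had 632 fragments with vehicle and 698 with GSK-126, a ratio of 1.17 (1.05 to 1.31) that was 0.689 under background scaling. OR5AN1, a receptor for musk compounds, had 2027 and 3001, a ratio of 1.57 (1.48 to 1.66), or 0.923 under background scaling. OR5A1, the beta-ionone receptor, had 733 and 412, a ratio of 0.596 (0.527 to 0.673). OR1D2, a receptor for bourgeonal that is also found in sperm, had 3906 and 3019 and shared intervals with OR1A1 and OR1A2; its ratio was 0.820 (0.781 to 0.860). OR2J3 had 514 and 287 (0.592), OR2W1 260 and 163 (0.665), OR10G4 104 and 79 (0.806) and OR6A2, linked to the smell of coriander, 48 and 29 (0.641). None of these passed the rule, and the intervals of OR10G4 (0.594 to 1.09) and OR6A2 (0.390 to 1.04) included 1. OR11H7 had no peak within 10 kb. Among the members with the most vehicle fragments per kb in their cluster, OR10A6 (34.5 fragments per kb, ratio 0.968), OR1Q1 (0.972) and OR10J1 (0.919) kept ratios whose intervals included 1, while OR5AC2 (0.765), OR2J2 (0.862), OR6C70 (0.663), OR8A1 (0.697) and OR10G2 (0.573) were below it, OR1I1 had 0.501, just outside the rule, and OR2A14 had 0.492 and was called lower.

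Among the members, the change with GSK-126 ran with the level of the mark. Members were ordered by fragments per kb in the fenretinide library, which is in neither side of the GSK-126 ratio. This does not keep level and ratio fully apart, because a gene of low level could become a member through a GSK-126 or combination peak alone. Peaks were called near 318 members with vehicle and 323 with fenretinide, against 338 with GSK-126 and 348 with both. The same ordering was not made over all genes. Among the 88 members with the lowest level (2.49 to 11.3 fragments per kb) 54 were higher and 4 lower, with a median log2 ratio of 1.40. Among the next 87 (11.3 to 17.5 fragments per kb) 9 were higher and 2 lower, with a median of -0.08. Among the following 88 (17.6 to 24.9) 3 were higher and 11 lower, with a median of -0.33, and among the highest 88 (25.3 to 43.6) none was higher and 16 were lower, with a median of -0.29. Over the 351 members Spearman's rho was -0.54. The points share libraries, intervals and neighbourhood, so no p is given. The chromosome 1 cluster had the lowest vehicle level of the large clusters, 3.94 fragments per kb, against 12.9 for OR4C46 to OR10V1 and 23.1 for OR52B4 to OR10A3. With GSK-126 these 3 clusters had 12.7, 18.3 and 19.9 fragments per kb, so their levels were closer together than with vehicle.

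**Figure D3:**
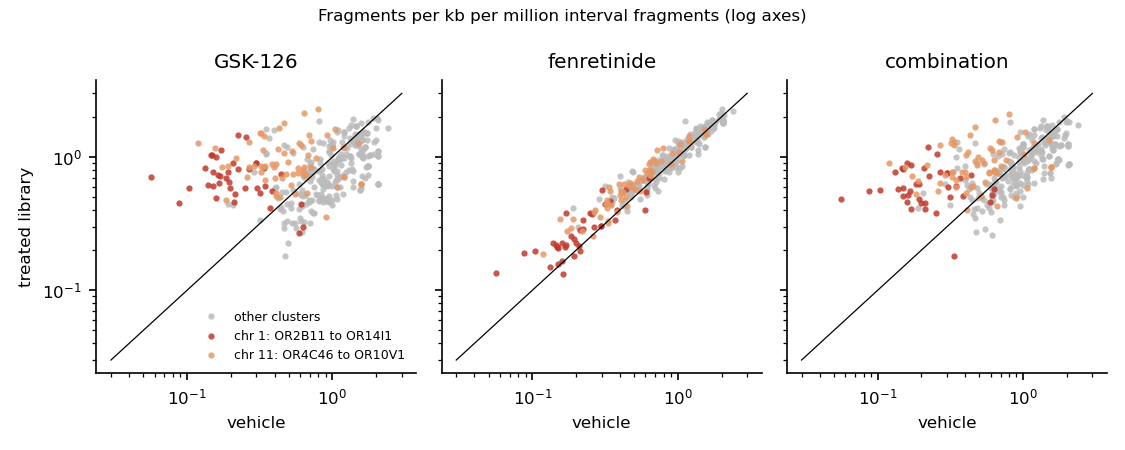
Fragments per kb, scaled to 1000000 interval fragments per library, of each member with at least 1 fragment in both libraries, in a treated library (vertical) against the vehicle library (horizontal), on log axes; the line marks equal shares. Members of the chromosome 1 cluster from OR2B11 to OR14I1 (red) and of the chromosome 11 cluster from OR4C46 to OR10V1 (orange) lie mostly above the line with GSK-126 and the combination; other members with a high vehicle level lie below it, and the fenretinide points follow the line. Background scaling would lower the GSK-126 points by 0.77, the combination points by 0.81 and the fenretinide points by 0.13 in log2.

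Fenretinide changed few receptor genes. Of 347 tested members 3 rose and none fell, against 0.337% and 1.5% of all genes. The median log2 ratio to vehicle was 0.13 for the members and -0.15 for all genes, a difference of 0.29; the members' median was -0.00013 under background scaling, where no member was called, against 0.182% of all genes higher and 2.64% lower. The 3 called members were OR5L1, from 24 to 58 fragments (ratio 2.19, 1.34 to 3.68), OR4D5, from 31 to 75 (2.19, 1.42 to 3.44), and OR2T33, from 18 to 43 (2.16, 1.22 to 3.98). All 3 had few fragments in the vehicle library. OR4D5 was also called higher with GSK-126 (68 fragments) and with the combination (62 fragments), at ratios of 2.33 and 2.17. Its window printed above, which need not be the promoter in use, holds none of the 4 motifs. The pooled ratio over the members' intervals was 1.06, which turned to 0.969 with DESeq2 size factors, 0.973 with TMM and 0.962 with background scaling. The cluster ratios of OR2B11 to OR14I1 and OR4C46 to OR10V1 were 1.23 (1.16 to 1.30) and 1.19 (1.17 to 1.21), and that of OR52B4 to OR10A3 was 1.09 (1.07 to 1.11), or 0.993 under background scaling.

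The combination gave values for the receptors close to those of GSK-126 alone. Of 349 tested members 57 rose and 11 fell against vehicle, where 9.86% of all genes were called higher and 32.9% lower; with DESeq2 size factors the counts were 50 and 20, with TMM 50 and 27, and with background scaling 22 and 128, against 5.12% and 69.2% of all genes. The median log2 ratio was -0.04 for the members and -0.64 for all genes, a difference of 0.60. The cluster from OR2B11 to OR14I1 had 5456 fragments and a ratio of 2.90 (2.76 to 3.06), or 1.65 under background scaling, and that from OR4C46 to OR10V1 had a ratio of 1.45 (1.42 to 1.47), or 0.824. OR2M7, named among the largest rises here, had 42 fragments in the vehicle library, 249 after GSK-126, 53 after fenretinide and 228 after both, a combination ratio of 5.88 (4.22 to 8.38). This comparison and that of GSK-126 share the vehicle library, so the same members on both lists is no separate evidence.

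Set directly against GSK-126, the combination left 0 of 354 tested members higher and 0 lower, against 0.443% and 0.501% of all genes. The members' median log2 ratio was 0.07 and that of all genes 0.08; the members' median turned to -0.06 with DESeq2 size factors and -0.04 with TMM. Background scaling also gave 0 and 0, against 0.312% and 0.602% of all genes. Yet single intervals were not equal. The shared interval of OR7G1, OR7G2 and OR1M1 had 1.41 times the GSK-126 share (1.25 to 1.60) and that of OR6B2 and OR6B3 1.34 times (1.22 to 1.46), while OR2M5 had 0.792 (0.695 to 0.901) and OR2T1 0.691 (0.527 to 0.901). These genes were named for their GSK-126 values, so the less extreme values of the combination are a description only. Set against fenretinide, 45 of 353 tested members were higher and 8 lower with the combination, where 9.43% and 18.7% of all genes were called; background scaling gave 11 and 125, against 4.71% and 59.6% of all genes. The medians were -0.16 for the members and -0.49 for all genes.

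Other large gene families are given beside the receptors. With GSK-126, 215 of 303 tested zinc-finger genes, transcription factors of the ZNF name series that lie in clusters as well, were higher and 33 lower, with a median log2 ratio of 2.37. Of 51 tested clustered protocadherins, neuronal cell adhesion genes expressed by stochastic promoter choice, 34 were higher and 0 lower, with a median of 1.5. Of all genes 11.5% were higher and 41.4% lower. The median interval length of the protocadherins was 95.3 kb, and many had the same value: their fenretinide lower quartile and median log2 ratio were both 0.059. They are therefore not separate measurements. Under background scaling the medians were 1.60 for zinc-finger genes and 0.73 for protocadherins, with 21 of the latter higher and 2 lower. They were -0.86 for the receptors and -1.55 for all genes, of which 7.23% were higher and 68.7% lower. The vehicle level of these families was lower than that of the receptors, at 4.31 fragments per kb for zinc-finger genes and 8.69 for protocadherins, and with GSK-126 they had 16.9 and 22.8. The receptor pseudogenes with a peak, 17 genes, had 4 higher and 3 lower and a median of -0.09, as the receptors did. The groups differ in their genes as well as in their level, and no test of the difference between them was made.

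**Figure D4:**
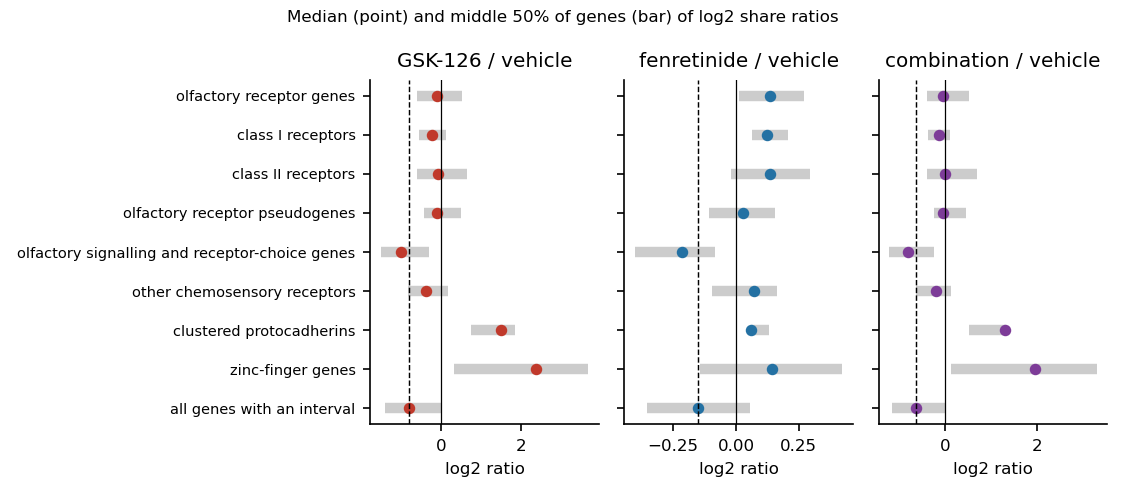
Median (point) and middle 50% (grey bar) of the log2 ratio of library shares to vehicle over the tested genes of each group, for GSK-126, fenretinide and the combination; the dashed line is the median of all genes and the horizontal scales differ between panels. Receptor genes sit at -0.09, 0.13 and -0.04, to the right of all genes at -0.79, -0.15 and -0.64; background scaling shifts the panels by -0.77, -0.13 and -0.81, which takes the fenretinide receptor median to -0.00013.

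Genes that serve the receptors were called at shares near those of all genes. The list of olfactory signalling and receptor-choice genes held 34 genes, of which 30 had an interval and 24 were tested for GSK-126: 1 was higher (4.17%) and 12 lower (50%), against 11.5% and 41.4% of all genes, with a median log2 ratio of -0.99, against -0.09 for the receptors and -0.79 for all genes. The gene that rose was OMP, which encodes the olfactory marker protein of mature olfactory neurons and lies inside the gene CAPN5, from 19 fragments in the vehicle library to 85 after GSK-126, with 14 after fenretinide and 68 after both (GSK-126 ratio 4.74, 2.86 to 8.26). Among those that fell were LHX2 (1143 to 295 fragments, ratio 0.274) and EBF1 (982 to 326, ratio 0.352), transcription factors that bind receptor enhancers and promoters, GNAL (1000 to 412, ratio 0.437), the G protein alpha subunit that couples the receptors, CNGA4 (290 to 112, ratio 0.410), a subunit of the olfactory cyclic nucleotide-gated channel, and REEP1 (1538 to 591, ratio 0.408), a helper of receptor transport. RTP1, a chaperone that carries receptors to the cell surface, had 837 and 625 fragments and a ratio of 0.792, and was not called. With fenretinide 1 of 24 was lower, against 1.5% of all genes: GFY, a protein of the olfactory neuron Golgi, from 761 to 418 fragments (ratio 0.497, 0.440 to 0.561).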

How the data were processed

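H3K27me3 ChIP-seq of T24 cells was analysed in 4 libraries, 1 per condition. The authors deposited raw fragment counts for consensus intervals, made with featureCounts 2.0.1 per the file headers, which give read pairs counted without strand, in every interval they overlap by a fraction of at least 0.2. They also deposited broad peaks per library with a peak score of no stated scale and, in bases, the distance to the nearest start site; MACS2 2.1.0 called the peaks and GRCh38 (hg38) was the build, as the submitters' processing notes say, and the headers show the annotation to be HOMER's. The aligner, the control and the treatment of reads that map to several receptor copies were not given in the sources used here, so near-identical receptors are uncertain. No sequence of the receptors beyond RefSeq promoter windows was used.

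An interval belonged to a gene when it wholly contained a peak annotated to the gene within 10 kb of its start site. Fragments were summed over each gene's distinct intervals and compared as shares of interval fragments, with exact Clopper-Pearson 95% intervals (Python, scipy). The calling rule was run on simulated Poisson counts in which most genes were unchanged and some had a set change larger than the rule. These counts hold counting error only. The run therefore cannot show how the rule behaves when libraries differ for other reasons. Clusters joined members of 1 chromosome with intervals within 1 Mb. DESeq2 1.42.0 and edgeR 4.0.16 (R 4.3.3) gave alternative scaling factors only. Other alternatives changed the fragment minimum, the distance, the ratio, the peak score, the part of an interval that peaks cover and the treatment of shared intervals. The text names, per treated library against vehicle, the 6 largest rises and the 6 largest falls, or fewer where fewer passed (at least 100 fragments, ranked by the counting bound nearest 1), the member with the most vehicle fragments per kb in each cluster of at least 10, and a list of 17 receptors of known ligand or tissue. OR2D3, OR51V1, OR51B6, OR10A5, OR2T33, OR2T11, OR10J5, OR11H1 and the OR4C genes besides OR4C15 were named after their values were seen. The members, lists and rules were chosen with earlier results of these data known. Input and RNA libraries were not analysed here.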

Additional observations from a re-analysis of the deposited data

How the results depend on the processing

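No paired analysis was possible because each condition had 1 library, and for the same reason no library could be left out. With background scaling the members' median log2 ratio was -0.86 for GSK-126 against vehicle (32 higher, 150 lower), -0.00013 for fenretinide (0 higher), -0.86 for the combination (22 higher, 128 lower), 0.023 for the combination against GSK-126 and -0.83 against fenretinide (11 higher, 125 lower). With DESeq2 size factors the medians were 0.011 for fenretinide, -0.17 for the combination (20 lower) and -0.057 for the combination against GSK-126, and with TMM 0.017, -0.20 (27 lower) and -0.039. A ratio of 1.5 in place of 2 gave 87 lower with GSK-126, 15 higher with fenretinide, 47 lower with the combination, 7 higher and 1 lower against GSK-126 and 56 lower against fenretinide. Peaks within 2 kb gave a median of -0.21 and 33 higher with GSK-126, 27 higher with the combination, 1 lower against GSK-126 and 19 higher against fenretinide, over fewer genes (247 tested with GSK-126); within 50 kb the medians were -0.020 with GSK-126 and 0.065 with the combination, and 1 member was lower with fenretinide and 5 for the combination against fenretinide. For fenretinide a minimum of 20 fragments gave 5 higher, a minimum of 100 gave 1, and peaks scored above the median gave 0. Merging members that share an interval gave 7 lower with the combination and 4 lower against fenretinide. Peaks covering at least 50% of an interval gave a fenretinide median of 0.17, and for the combination 2 higher against GSK-126 and 5 lower against fenretinide; peaks scored above the median also gave 2 higher against GSK-126. Intervals over the RefSeq gene span with 5 kb flanks, an alternative chosen after seeing the data, gave 1 higher against GSK-126. Except where the alternative itself tested fewer genes, the cause was not tested. With DESeq2 size factors, TMM and background scaling in that order, the ratio crossed 1 in 0, 0 and 2 of the 16 large clusters for GSK-126, 3, 3 and 5 for fenretinide, 3, 4 and 5 for the combination, 8, 7 and 1 for the combination against GSK-126 and 0, 0 and 1 against fenretinide. Of 43 named genes it did so in 0, 0 and 2, 13, 12 and 15, 0, 1 and 3, 8, 5 and 3, and 0, 0 and 3. Leaving out members of near-identical protein was not run, since no protein sequences were used here. Low vehicle counts, as at OR2T1, limit the precision of the largest ratios.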

Other observations

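A list chosen by symbol was measured in the same way: taste, vomeronasal and trace amine receptor genes, MS4A genes, FPR1 to FPR3 and GUCY2D. A place on this list does not mean that a gene is a chemosensory receptor in humans. Of its 46 genes with an interval 44 were tested for GSK-126 against vehicle, and 5 were higher and 8 lower, with a median log2 ratio of -0.36. The tested genes included 16 MS4A genes, of which 0 were higher and 3 lower. The bitter taste receptor genes TAS2R3 and TAS2R4 shared intervals and went from 36 fragments in the vehicle library to 175 after GSK-126, with 44 after fenretinide and 97 after both, a GSK-126 ratio of 5.16 (3.58 to 7.6). The sweet taste receptor subunit gene TAS1R2 went the other way, from 4665 to 1700 fragments (ratio 0.386, 0.365 to 0.409). Among the vomeronasal receptor genes VN1R1 rose from 18 to 103 fragments (ratio 6.07, 3.66 to 10.6), and VN1R2 and VN1R4, which share their intervals, from 1072 to 3962 (ratio 3.92, 3.66 to 4.20), while VN1R5 had 121 and 118. The vomeronasal receptor genes that rose lie on chromosome 19 and VN1R5 on chromosome 1. Whether position had a part was not tested. Of 7 neighbouring trace amine receptor genes 3 fell, TAAR6, TAAR8 and TAAR9, and the other 4 had ratios from 0.532 for TAAR5 to 0.739 for TAAR1. GUCY2D, a receptor guanylate cyclase gene of the list, fell from 579 to 160 fragments (ratio 0.293, 0.244 to 0.350), and MS4A18 and MS4A8, which share their intervals, fell from 1849 to 746, as did MS4A15, whose intervals include theirs, from 2357 to 870. In the background 11.5% of all genes were called higher and 41.4% lower.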
